A study of Mus musculus with 6 samples.

Results

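The 10 genes described here encode enzymes that produce NADPH or feed the pathways that do so, and they were taken by gene symbol from a list of the pentose phosphate pathway, malic enzyme, the isocitrate dehydrogenases and a folate dehydrogenase. All 10 were listed among the 11609 mRNA genes of the tables, and all 10 were tested, since each reached 1 FPKM in 3 or more libraries. FPKM counts sequenced fragments relative to transcript length and to the mapped total of the library, so levels of different genes can be compared roughly. The RSL3 libraries differed along base composition, as described below, which limits comparisons between genes of unlike GC content. The cells were N2a, a mouse neuroblastoma line, which in both groups had first been differentiated with 10 µM retinoic acid over 96 h in medium with 2% serum. The 3 RSL3 libraries came from cells then given 5 µM RSL3 for 24 h, and the 3 DMSO libraries from cells given the solvent alone. RSL3 blocks GPX4, the glutathione-dependent enzyme that reduces lipid peroxides, and so induces ferroptosis. All libraries come from a single tumour-derived cell line. The sources used here do not say if replicates were grown separately, so the p-values set a difference only against the spread between libraries, which may be technical.

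NADPH is the electron donor with which glutathione reductase and thioredoxin reductase keep the glutathione and thioredoxin systems reduced, and GPX4 draws its electrons from glutathione. In the oxidative branch of the pentose phosphate pathway, glucose-6-phosphate dehydrogenase and 6-phosphogluconate dehydrogenase each form NADPH, while the non-oxidative branch interconverts sugar phosphates and forms none. Cytosolic malic enzyme, the NADP-dependent isocitrate dehydrogenases and the folate enzyme MTHFD1 form NADPH by other routes. The transcription factor NRF2, which is activated by oxidative and electrophilic stress, is known to switch on several of these genes through antioxidant response elements.

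RNA of neuronal and neuroblast genes was present, with 14 of 15 markers listed. Their summed level was 650 to 706 FPKM in RSL3 libraries, against 730 to 746 FPKM in DMSO libraries. Of 13 tested markers 5 fell and 0 rose at an adjusted p under 0.05 in limma. Over all tested genes 3.92% fell and 2.46% rose. Uchl1 stood higher in every RSL3 library without passing, at 211 to 233 FPKM against 178 to 198 FPKM with DMSO. The neuronal marker Dcx was not listed, and Th, the defining enzyme of catecholamine synthesis, was below 1 FPKM in every library. Of 14 liver markers 13 were tested and all 13 fell, where 3.92% of all tested genes did. The 14 summed to 17.7 to 32.5 FPKM in RSL3 libraries and 72.8 to 105 FPKM in DMSO libraries. Of 7 glial and 6 immune markers only Mbp and Cd68 were listed, at no more than 1.25 FPKM, and 3 of 7 fibroblast and endothelial markers were listed, with sums of 1.51 to 2.27 FPKM in RSL3 libraries and 1.72 to 5.59 FPKM in DMSO libraries. The 2 lncRNAs that overlap ribosomal RNA sequence summed to 26639 to 33129 FPKM in RSL3 libraries and 18793 to 22979 FPKM in DMSO libraries. The part of these differences in the results was not tested. Fewer cells of a type and less RNA per cell cannot be told apart in such bulk samples. Where the liver gene RNA came from in cultures of a single neuroblastoma line was not tested, so its fall may not be a change within N2a cells.

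Both dehydrogenases of the oxidative pentose phosphate branch, G6pdx and Pgd, rose in RSL3-treated cells, and the folate enzyme Mthfd1 fell. Pgls, the non-oxidative branch and both isocitrate dehydrogenases did not pass the test. Me1 was higher in all 3 RSL3 libraries without passing. In all, 2 of 10 members rose and 1 fell at an adjusted p under 0.05 in limma, where 6.38% of the 10590 tested genes passed, 2.46% rising and 3.92% falling. The groups did not overlap for 4 members, 3 of them higher and 1 lower with RSL3, against 33% of all tested genes, 13.4% higher and 19.6% lower. The median log2 fold change of the 10 members was 0.0041, against -0.031 over all tested genes. It turned to -0.041 without DMSO replicate 3 and -0.058 without RSL3 replicate 3, where all tested genes had -0.043 and -0.053, and reached 0.060 without DMSO replicate 2.

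The sequences around the annotated start sites of the 4 members whose groups did not overlap are shown because NRF2 sites are known near such genes. Each runs 5′ to 3′ on the strand of the gene, from 250 bases before to 30 bases after the start site of the RefSeq gene on GRCm38.p6. Capitals mark the antioxidant response element core TGACNNNGC on either strand.
G6pdx, chrX:74428851-74429130, minus strand: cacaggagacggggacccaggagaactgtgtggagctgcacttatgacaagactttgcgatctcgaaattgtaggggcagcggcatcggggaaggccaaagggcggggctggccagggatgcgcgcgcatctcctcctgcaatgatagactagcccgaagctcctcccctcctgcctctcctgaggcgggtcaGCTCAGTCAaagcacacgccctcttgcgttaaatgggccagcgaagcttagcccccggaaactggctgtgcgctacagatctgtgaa
Pgd, chr4:149166676-149166955, minus strand: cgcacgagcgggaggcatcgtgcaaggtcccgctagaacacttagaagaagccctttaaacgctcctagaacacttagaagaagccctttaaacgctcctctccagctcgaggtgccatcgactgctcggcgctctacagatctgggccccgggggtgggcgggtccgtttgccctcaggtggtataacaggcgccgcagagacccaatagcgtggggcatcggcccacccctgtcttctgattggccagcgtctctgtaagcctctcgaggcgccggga
Me1, chr9:86695885-86696164, minus strand: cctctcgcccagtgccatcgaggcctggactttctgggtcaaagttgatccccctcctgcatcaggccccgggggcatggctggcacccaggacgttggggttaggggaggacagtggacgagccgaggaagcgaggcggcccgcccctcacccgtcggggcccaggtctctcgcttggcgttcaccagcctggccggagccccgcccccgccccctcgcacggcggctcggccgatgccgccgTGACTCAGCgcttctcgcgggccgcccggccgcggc
Mthfd1, chr12:76254982-76255261, plus strand: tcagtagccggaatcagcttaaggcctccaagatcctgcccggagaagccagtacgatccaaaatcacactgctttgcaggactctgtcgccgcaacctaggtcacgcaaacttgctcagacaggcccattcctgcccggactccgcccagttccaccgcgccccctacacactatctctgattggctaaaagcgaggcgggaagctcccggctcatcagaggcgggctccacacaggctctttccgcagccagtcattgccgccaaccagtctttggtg
In the G6pdx window the core stands on the opposite strand, where it reads TGACTGAGC. Its first base in the printed direction lies 57 bases before the RefSeq start site. In GENCODE M21 the gene extends to 74429194, further upstream, so the whole printed G6pdx window lies inside the gene there. In the Me1 window the core reads TGACTCAGC, begins 6 bases before the start site and runs across it. The Pgd and Mthfd1 windows shown hold none, and neither does the window of a second Me1 start site in RefSeq. A second Pgd start site in RefSeq has a core, TGACATTGC, that begins at base 4 after the start and lies inside annotated coding sequence. In the windows of the other 6 members, searched over 300 bases, the core was not found. By gene, 17.0% of the 8270 tested genes with a window hold the core in at least 1 of them, and 19.6% of the 204 such genes that rose with RSL3 do. The letters alone do not show that a factor binds there.

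G6pdx (ENSMUSG00000031400.10, chromosome X, 74409483 to 74429194, minus strand, GRCm38) encodes glucose-6-phosphate dehydrogenase, which catalyses the first and rate-limiting step of the pathway. It stood at 92.2, 87.8 and 91.1 FPKM in RSL3 replicates 1, 2 and 3, against 48.6, 50.9 and 47.1 FPKM in DMSO replicates 1, 2 and 3. Every RSL3 library lay far above every DMSO library, and the 3 libraries of each group lay close together. The mean was 90.3 ± 2.31 FPKM with RSL3 and 48.9 ± 1.90 FPKM with DMSO (SD, n = 3 each), a ratio of 1.85. On the log2(FPKM + 1) scale the difference was 0.87 ± 0.06 (SE; limma adjusted p = 0.00211). G6pdx shares exon sequence with Ikbkg on the opposite strand, which stood between 1.70 and 4.36 FPKM in the 6 libraries.

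Pgls (chromosome 8, 71592176 to 71601092) encodes 6-phosphogluconolactonase, which hydrolyses the product of the first step and forms no NADPH. It stood at 11.1, 6.41 and 9.85 FPKM in RSL3 replicates 1, 2 and 3, and at 8.17, 10.3 and 8.61 FPKM in the DMSO replicates. The highest and the lowest value both belonged to RSL3 libraries. The log2 difference was -0.011, with a 95% interval from -0.44 to 0.42, the widest of the 10 members. A change of moderate size in either direction was thus not detectable with these libraries. Pgls shares exon sequence with Fam129c on the same strand, which stood between 0.63 and 0.89 FPKM across the libraries.

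Pgd (ENSMUSG00000028961.15, chromosome 4, 149149991 to 149166771, minus strand) encodes 6-phosphogluconate dehydrogenase, which forms the second NADPH of the branch. It stood at 46.7, 47.0 and 49.2 FPKM in RSL3 replicates 1, 2 and 3, against 29.8, 29.6 and 30.9 FPKM in DMSO replicates 1, 2 and 3. The groups were again well apart. The means were 47.7 ± 1.36 FPKM with RSL3 and 30.1 ± 0.68 FPKM with DMSO (SD, n = 3 each), a ratio of 1.58. The log2 difference was 0.64 ± 0.06 (SE; limma adjusted p = 0.00295). Both G6pdx and Pgd passed in all 14 alternative fits, those without 1 library included, with log2 differences of 0.85 to 0.96 for G6pdx and 0.62 to 0.73 for Pgd.

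**Figure D1:**
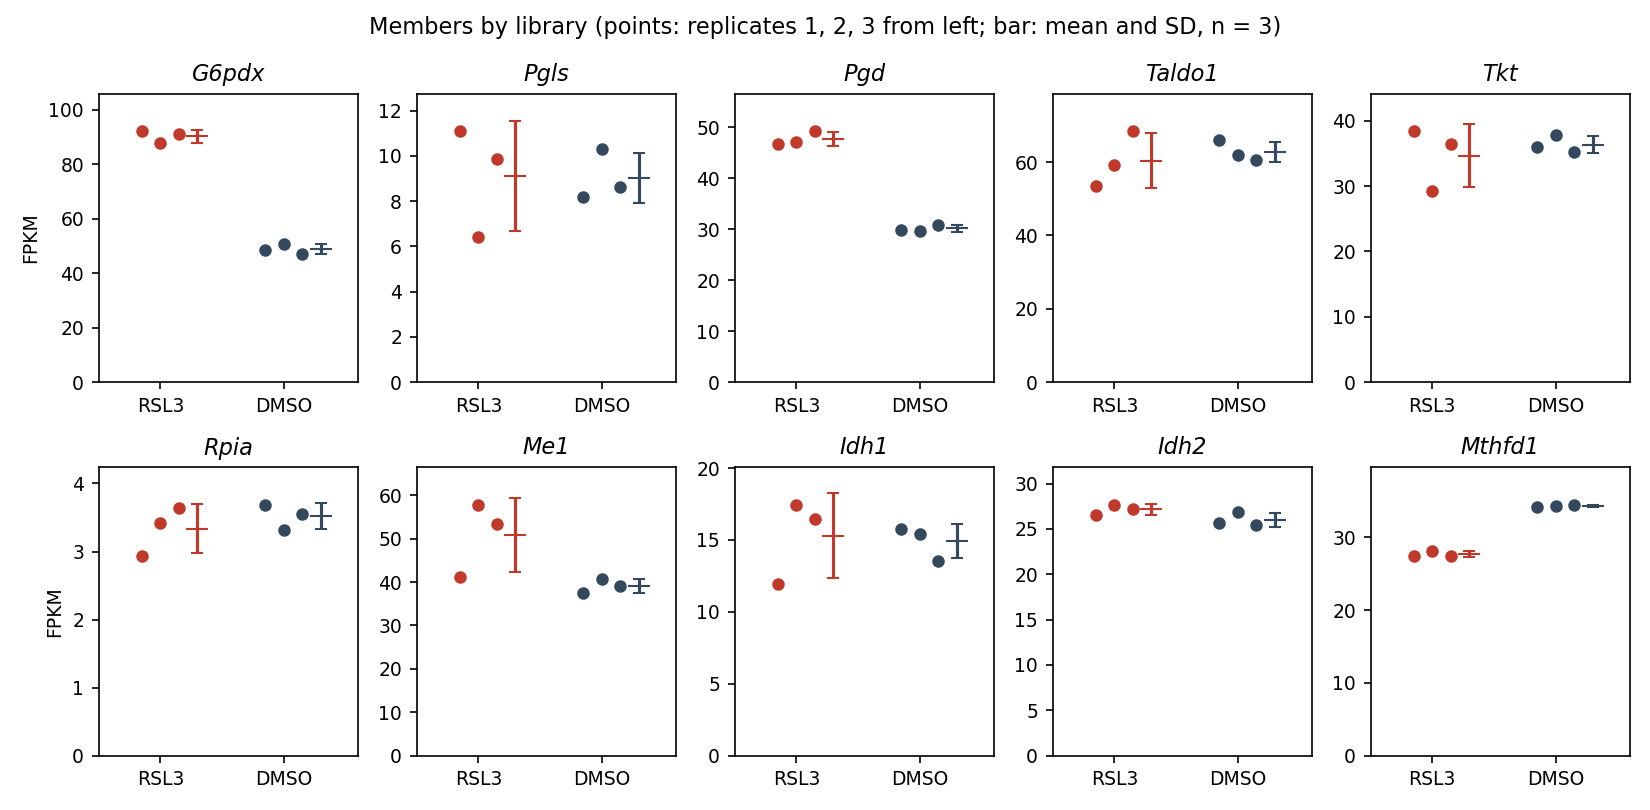
FPKM (vertical axes, from 0) of the 10 members in the 3 RSL3 and 3 DMSO libraries; points are libraries and the bars beside them the mean and SD. G6pdx, Pgd and Me1 lie higher in every RSL3 library and Mthfd1 lower, while the groups of the other 6 members overlap.

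None of the 3 members of the non-oxidative branch passed the test. Taldo1 (chromosome 7, 141392199 to 141402968), encoding transaldolase, stood at 53.6, 59.2 and 68.4 FPKM in the RSL3 replicates and at 65.9, 61.9 and 60.5 FPKM in the DMSO replicates. Tkt (chromosome 14, 30548359 to 30574720), encoding transketolase, stood at 38.4, 29.2 and 36.4 FPKM with RSL3 and at 36.0, 37.8 and 35.2 FPKM with DMSO. Rpia (chromosome 6, 70765720 to 70792232), encoding ribose-5-phosphate isomerase, stood at 2.94, 3.43 and 3.64 FPKM with RSL3 and at 3.69, 3.31 and 3.55 FPKM with DMSO. For all 3 genes the groups overlapped and the RSL3 libraries spread more widely than the DMSO libraries. Their log2 differences were -0.061 for Taldo1 (95% interval -0.28 to 0.16), -0.074 for Tkt (-0.32 to 0.17) and -0.063 for Rpia (-0.28 to 0.16), and none passed (limma adjusted p = 0.741, 0.711 and 0.730). These intervals leave out a rise as large as that of G6pdx or Pgd.

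Ratios of 2 genes within a library were taken as differences on the log2(FPKM + 1) scale. The log2 ratio of G6pdx to Tkt, the oxidative entry step against the transketolase, was 1.24, 1.55 and 1.3 in RSL3 replicates 1, 2 and 3 and 0.42, 0.42 and 0.41 in the DMSO replicates. The mean difference was 0.95, and the exact permutation test, two-sided, gave p = 0.1, the smallest possible with 3 libraries against 3 (0.133 adjusted over 4 ratios). Summed over G6pdx, Pgls and Pgd, the oxidative branch reached 147 ± 5.15 FPKM with RSL3 and 88.0 ± 2.43 FPKM with DMSO (SD, n = 3 each). Summed over Rpia, Tkt and Taldo1, the non-oxidative branch reached 98.4 ± 8.83 FPKM with RSL3 and 103 ± 3.20 FPKM with DMSO. As a share of all mRNA FPKM, the oxidative branch held 0.0706% ± 0.0045 with RSL3 and 0.0394% ± 0.00096 with DMSO. The non-oxidative branch held 0.0472% ± 0.0041 with RSL3 and 0.0459% ± 0.00095 with DMSO, the reverse order of its sums.

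**Figure D2:**
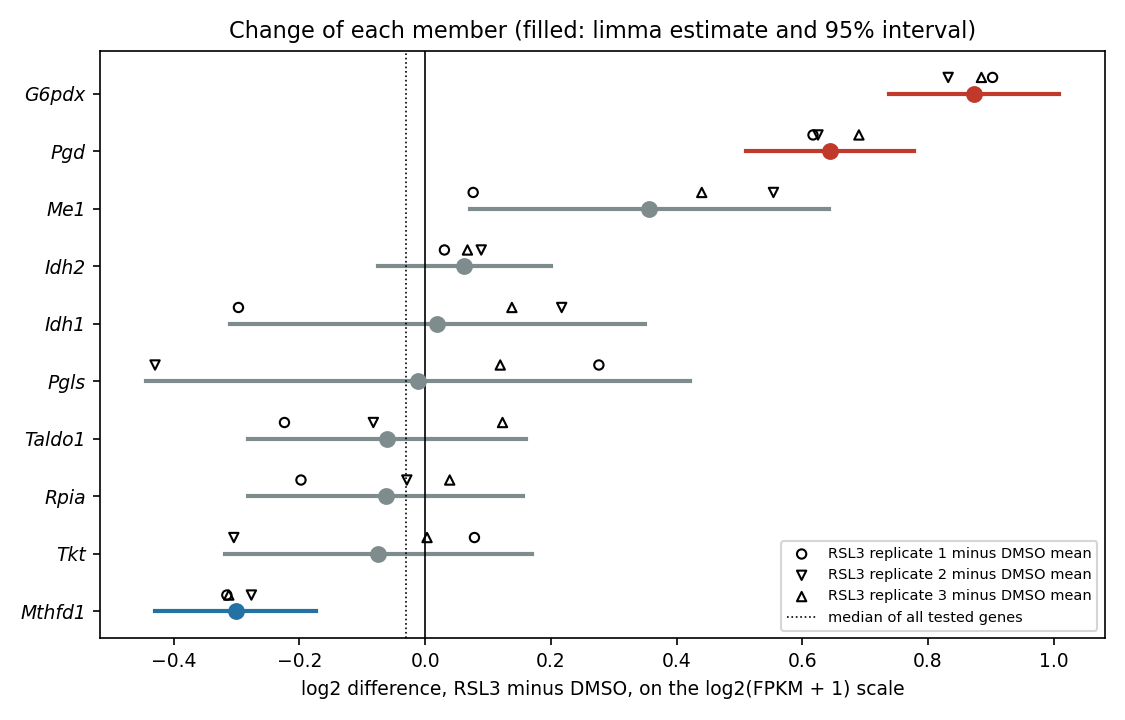
Log2 difference, RSL3 minus DMSO, of each member (horizontal axis) with its 95% interval from limma; open symbols are the 3 RSL3 libraries against the DMSO mean, and the dotted line is the median of all tested genes. G6pdx and Pgd stand apart at 0.87 and 0.64, Mthfd1 lies at -0.30, and the 3 RSL3 libraries of Idh1, Pgls, Taldo1, Tkt and Rpia fall on both sides of 0.

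Me1 (ENSMUSG00000032418.15, chromosome 9, 86581371 to 86695953, minus strand) encodes the cytosolic NADP-dependent malic enzyme, which turns malate into pyruvate. It stood at 41.3, 57.8 and 53.4 FPKM in RSL3 replicates 1, 2 and 3, against 37.4, 40.7 and 39.1 FPKM in the DMSO replicates. All RSL3 libraries lay above all DMSO libraries, but replicate 1 lay barely above and replicates 2 and 3 well above. The log2 difference was 0.36 ± 0.12 (SE; 95% interval 0.072 to 0.64) and did not pass (limma adjusted p = 0.129, unadjusted p = 0.0208). Without RSL3 replicate 1 it was 0.50 and passed (adjusted p = 0.00691), and with the length and GC trends of each library removed it was 0.44 and passed (adjusted p = 0.00597). In the other 12 alternatives it did not pass.

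The RSL3 libraries differed among themselves along base composition, while the DMSO libraries were not examined for this. Each RSL3 library was set against the mean of the other RSL3 libraries across 10578 genes, which are not independent replicates. The difference correlated with transcript GC content at 0.65 for RSL3 replicate 1, -0.61 for replicate 2 and -0.24 for replicate 3. These differences cancel out within a gene, so the correlations are not independent and cannot all share a sign. Among the members, Idh1 and Me1 have the lowest GC content, 43.8% and 45.1%, and stood 0.47 and 0.42 lower in replicate 1 on the log2 scale. Pgls has the highest, 65.9%, and stood 0.43 higher in replicate 1 and differed by -0.63 in replicate 2. The members of middle GC content, 51.9% to 55.4%, differed in either direction: in replicate 1 Tkt differed by 0.23, Taldo1 by -0.24, Rpia by -0.20 and Idh2 by -0.048. G6pdx, Pgd and Mthfd1, with 52.6%, 54.2% and 52.6% GC, differed between replicate 1 and the others by 0.044, -0.040 and -0.021. With the trends removed, Me1 stood 0.34, 0.52 and 0.46 above the DMSO mean in RSL3 replicates 1, 2 and 3, and Idh1 0.011, 0.17 and 0.18 above it.

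Me2, the mitochondrial malic enzyme, stood lower in every RSL3 library, with 22.7, 28.1 and 29.5 FPKM against 33.1, 33.5 and 31.8 FPKM in the DMSO replicates, without passing (log2 difference -0.29; limma adjusted p = 0.129). Without RSL3 replicate 1 it was -0.18 (adjusted p = 0.0670), and with the trends removed it was -0.22 and passed (adjusted p = 0.0425). The log2 ratio of Me1 to Me2 was 0.83, 1.02 and 0.84 in the RSL3 replicates and 0.17, 0.27 and 0.29 in the DMSO replicates, which did not overlap (difference 0.65; exact permutation p = 0.1, adjusted 0.133). Under every alternative run for it the difference in this ratio was positive. The circRNA tables list 2 circRNAs named by coordinates within Me1, and none so named within the other members. Only 1414 of the 3168 circRNAs are named by coordinates. The rest were not placed on genes, so circRNAs of any member may be among them. The 2 within Me1 are described here. Both have ends at exon ends. The one at chromosome 9, 86611853 to 86619834, had 0, 0 and 3 times the smallest value of the library in RSL3 replicates 1, 2 and 3 and 2, 0 and 2 times in the DMSO replicates. The one from 86611853 to 86651029 had 3 times that value in RSL3 replicate 3 and 0 in all other libraries. At so few reads no difference could be read.

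The cytosolic and the mitochondrial isocitrate dehydrogenase, which form NADPH from isocitrate in their compartments, did not pass. Idh1 (chromosome 1, 65158616 to 65186500), the cytosolic and peroxisomal enzyme, stood at 11.9, 17.5 and 16.5 FPKM in the RSL3 replicates and at 15.8, 15.4 and 13.6 FPKM in the DMSO replicates. Idh2 (chromosome 7, 80094846 to 80115392), the mitochondrial enzyme, stood at 26.5, 27.7 and 27.3 FPKM with RSL3 and at 25.6, 26.9 and 25.4 FPKM with DMSO. The groups overlapped for both, and Idh1 varied much more between the RSL3 libraries. The log2 difference was 0.019 for Idh1 (95% interval -0.31 to 0.35; limma adjusted p = 0.952) and 0.062 for Idh2 (-0.076 to 0.20; adjusted p = 0.572). The log2 ratio of Idh1 to Idh2 was -1.09, -0.64 and -0.69 in the RSL3 replicates and -0.67, -0.77 and -0.86 in the DMSO replicates (difference -0.043; exact permutation p = 0.9).

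Mthfd1 (ENSMUSG00000021048.7, chromosome 12, 76255298 to 76319803, plus strand) encodes the cytosolic folate enzyme whose dehydrogenase activity can form NADPH while it converts folate-bound one-carbon units. It stood at 27.4, 28.2 and 27.5 FPKM in RSL3 replicates 1, 2 and 3, against 34.2, 34.3 and 34.5 FPKM in the DMSO replicates. Both groups were tight and did not overlap. The means were 27.7 ± 0.43 FPKM with RSL3 and 34.3 ± 0.14 FPKM with DMSO (SD, n = 3 each), a change of -19.4%. The lncRNA Gm47525, on the opposite strand, overlaps an exon of Mthfd1 and stood at 0.425, 1.00 and 0.688 FPKM with RSL3 and at 0.515, 0.431 and 0.326 FPKM with DMSO. The log2 difference was -0.30 ± 0.05 (SE; limma adjusted p = 0.0223). The call was lost without DMSO replicate 1, 2 or 3 or RSL3 replicate 3 (adjusted p = 0.126, 0.117, 0.121 and 0.0897), after quantile normalization (-0.22, adjusted p = 0.0601) and with the replicate number as a block (0.0995), while the estimate lay between -0.31 and -0.22 throughout.

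Other folate genes also stood lower with RSL3. Mthfd2, its mitochondrial counterpart, stood at 90.4, 93.0 and 92.5 FPKM in the RSL3 replicates and at 119, 128 and 123 FPKM in the DMSO replicates, and fell (-0.42; limma adjusted p = 0.00825). Without DMSO replicate 2 or 3 the adjusted p was 0.0555 or 0.0567. The log2 ratio of Mthfd1 to Mthfd2 was -1.69, -1.69 and -1.72 with RSL3 and -1.77, -1.87 and -1.81 with DMSO (difference 0.12; exact permutation p = 0.1, adjusted 0.133). With length and GC trends removed the difference was 0.065 (exact permutation p = 0.3) and the groups overlapped. The serine hydroxymethyltransferase gene Shmt2, named after its values were seen, stood 0.33 lower on the log2 scale without passing (limma adjusted p = 0.0543).

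**Figure D3:**
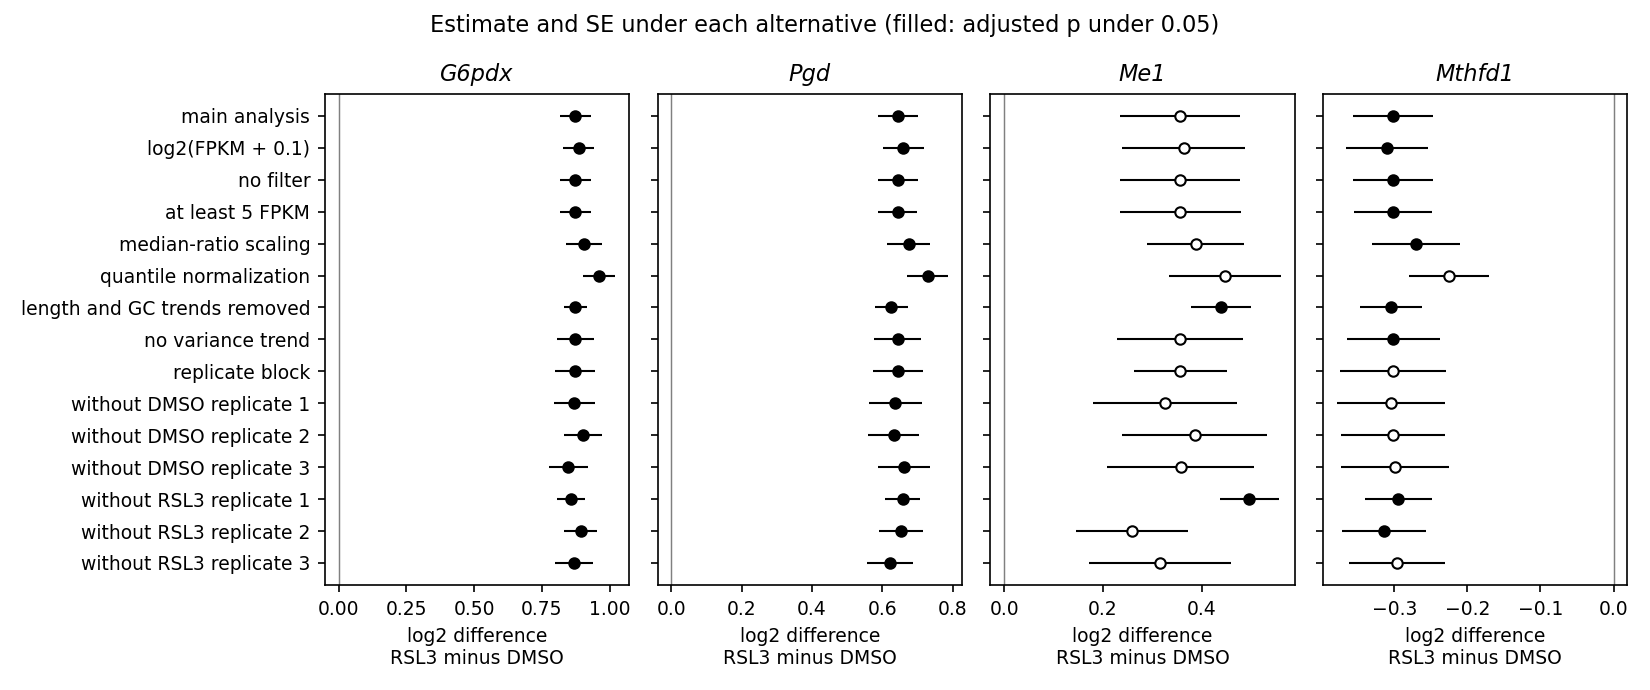
Log2 difference, RSL3 minus DMSO, and its SE (horizontal axes) for G6pdx, Pgd, Me1 and Mthfd1 in the main analysis and under each alternative; filled points passed at an adjusted p under 0.05. G6pdx and Pgd are filled throughout, Me1 is filled without RSL3 replicate 1 and with length and GC trends removed, and Mthfd1 loses the call in 6 of 14 alternatives.

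With RSL3 the order of the members by level changed at the top. From the highest down, the RSL3 means were 90.3 FPKM for G6pdx, 60.4 for Taldo1, 50.8 for Me1, 47.7 for Pgd, 34.7 for Tkt, 27.7 for Mthfd1, 27.2 for Idh2, 15.3 for Idh1, 9.12 for Pgls and 3.33 for Rpia. With DMSO, Taldo1 led with 62.8 FPKM, followed by G6pdx (48.9), Me1 (39.1), Tkt (36.3), Mthfd1 (34.3), Pgd (30.1), Idh2 (26.0), Idh1 (14.9), Pgls (9.03) and Rpia (3.52). Neighbours whose libraries overlapped were Taldo1 and Me1, Me1 and Pgd, and Mthfd1 and Idh2 with RSL3, and Me1 and Tkt with DMSO. G6pdx thus stood first in every RSL3 library, and Pgd ranked 4 with RSL3 and 6 with DMSO.

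Among the 6 genes whose enzymes form NADPH themselves, G6pdx held 37.5%, 33.0% and 34.4% of the summed FPKM in the RSL3 replicates, against 25.4%, 25.7% and 24.7% in the DMSO replicates. Mthfd1 held 10.7% ± 0.39 with RSL3 and 17.8% ± 0.38 with DMSO, and Me1 held 19.6% ± 2.55 with RSL3 and 20.2% ± 0.59 with DMSO (SD, n = 3 each). In the same order, Idh2 held 10.5% ± 0.26 and 13.4% ± 0.13, and Idh1 5.88% ± 0.91 and 7.71% ± 0.57. Pgd held 18.4% ± 0.67 and 15.6% ± 0.62. Shares are relative, so larger shares of G6pdx and Pgd lower those of the other genes even where their levels do not change. The sum of the 6 was 246, 266 and 265 FPKM in the RSL3 replicates and 191, 198 and 191 FPKM in the DMSO replicates. As a share of all mRNA FPKM, this was 0.124% ± 0.0011 with RSL3 and 0.0864% ± 0.0015 with DMSO (SD, n = 3 each). These are mRNA levels and not enzyme activities or NADPH.

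**Figure D4:**
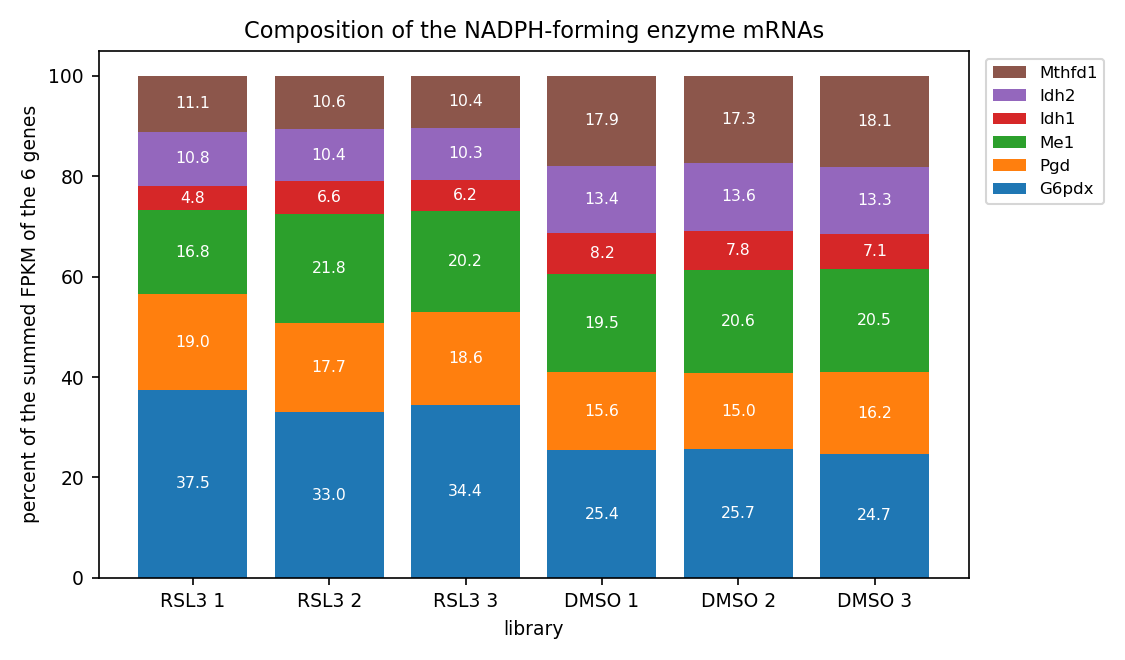
Share of each of the 6 NADPH-forming enzyme genes in their summed FPKM (vertical axis, percent) for each RSL3 and DMSO library (horizontal axis). The G6pdx segment takes 33.0% to 37.5% in RSL3 libraries and 24.7% to 25.7% in DMSO libraries. The Mthfd1, Idh1 and Idh2 segments are smaller in each RSL3 library, as shares and not necessarily as levels.

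The patterns most like those of the members that passed were found by the root mean square distance of the 6 libraries' deviations from the DMSO mean on the log2 scale. For G6pdx these were Tnfrsf22 (distance 0.043), a decoy receptor for TRAIL, and Cat (0.073), the hydrogen peroxide-degrading catalase. For Pgd they were Smad3 (0.030), a transducer of TGF-beta signals, and Plin3 (0.040), a lipid droplet coat protein. For Mthfd1 they were Dnmt1 (0.016), the maintenance DNA methyltransferase, and Cndp2 (0.022), a dipeptidase. Both fell in the main analysis and lost the call with the replicate block (adjusted p = 0.106 for Dnmt1 and 0.110 for Cndp2) and without DMSO replicate 1, 2 or 3 or RSL3 replicate 3 (up to 0.135 and 0.132), Dnmt1 also after quantile normalization (0.0792), with median-ratio scaling (0.0534) and without the variance trend (0.0520). Cat stood at 23.7, 24.2 and 21.9 FPKM in the RSL3 replicates and at 12.0, 13.8 and 12.1 FPKM in the DMSO replicates.

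Related genes were read from 5 lists, chosen with earlier results of these data known, so their counts and medians only describe the lists. Over all tested genes, 2.46% rose and 3.92% fell in limma. The rest of the pentose phosphate and ribose phosphate genes showed no call: of 12 tested, 0 passed in limma, 2 had an unadjusted p under 0.05 (24.1% of all tested genes did), and the median log2 fold change was -0.083 (0.035 without RSL3 replicate 1). They include Rpe, the other isomerase of the pathway, and Tigar, which lowers glycolytic flux in favour of the pathway. H6pd, the endoplasmic reticulum counterpart of G6pdx, was not listed in the tables. Among 12 tested NADPH, NADP and one-carbon genes outside the members 1 fell, Mthfd2, and 0 rose, with a median of -0.23; 0 fell without DMSO replicate 2 or 3, and 2 without RSL3 replicate 1 or 2. Nnt, the mitochondrial transhydrogenase, stood at 14.0, 15.1 and 14.7 FPKM with RSL3 and at 13.4, 15.3 and 13.9 FPKM with DMSO (0.038; adjusted p = 0.804). Of 14 citrate and malate genes 2 fell and 0 rose, with a median of -0.15 (-0.098 without RSL3 replicate 1 and -0.045 after quantile normalization). These were Got1 (-0.40; adjusted p = 0.0135), the cytosolic aspartate aminotransferase, and Acly (-0.29; adjusted p = 0.0424), which splits citrate into acetyl-CoA and oxaloacetate. Both calls were lost without DMSO replicate 1, 2 or 3 or RSL3 replicate 3 (adjusted p of 0.0598 to 0.0826 for Got1 and 0.102 to 0.174 for Acly), and that of Acly also without RSL3 replicate 2 (0.0583). With the replicate block the adjusted p was 0.0674 for Got1 and 0.0964 for Acly. The call of Acly was lost as well after quantile normalization (-0.15, adjusted p = 0.214), with median-ratio scaling (0.0527) and without the variance trend (0.0700). Without RSL3 replicate 1, 4 genes of the list fell.

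Among 30 enzymes that use NADPH, 8 rose and 1 fell, where 2.46% of all tested genes rose and 3.92% fell. The median log2 fold change was 0.10 (0.056 without DMSO replicate 1 and 0.058 without RSL3 replicate 1). Between 4 and 5 passed without DMSO replicate 1, 2 or 3 or RSL3 replicate 3. Nqo1, the quinone reductase, stood at 16.5, 21.9 and 19.3 FPKM in the RSL3 replicates and at 7.16, 7.44 and 7.20 FPKM in the DMSO replicates (1.28; limma adjusted p = 0.00273). Blvrb (0.91), a biliverdin and flavin reductase, Ptgr1 (0.80), which reduces leukotriene and prostaglandin products, and Cbr3 (0.56), a carbonyl reductase, also rose. So did Gsr, the glutathione reductase, and Txnrd1, the cytosolic thioredoxin reductase. Gsr stood at 73.6, 76.0 and 77.8 FPKM in the RSL3 replicates and at 54.2, 61.7 and 55.4 FPKM in the DMSO replicates (0.41; adjusted p = 0.0176), and Txnrd1 at 72.5, 84.0 and 81.5 FPKM with RSL3 and at 61.6, 65.7 and 61.9 FPKM with DMSO (0.32; adjusted p = 0.0452). The call of Gsr was lost without DMSO replicate 1 or 3 or RSL3 replicate 3 (up to 0.10), and that of Txnrd1 in each fit without 1 library other than RSL3 replicate 1 (up to 0.188). With the replicate block the adjusted p was 0.0572 for Gsr and 0.0876 for Txnrd1, and without the variance trend it was 0.0683 for Txnrd1. The other thioredoxin reductases did not pass: Txnrd2, the mitochondrial one, stood lower in every RSL3 library, with 2.92, 3.05 and 3.47 FPKM against 4.18, 3.97 and 3.48 FPKM in the DMSO replicates (-0.24; limma adjusted p = 0.188), and Txnrd3 differed by -0.055 (adjusted p = 0.693). The gene that fell, Aldh18a1 (-0.46; adjusted p = 0.00915), encodes the enzyme that starts proline synthesis from glutamate; without DMSO replicate 2 or 3 its adjusted p was 0.0573 or 0.0615.

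Of 19 tested NRF2 targets outside the members, a list that shares 4 genes with the NADPH users, 10 rose and 0 fell. Over all tested genes 2.46% rose and 3.92% fell. This list too was chosen with earlier results of these data known, so the count is descriptive. Its median was 0.41, and 6 rose without DMSO replicate 1 or 3 or RSL3 replicate 3. Srxn1, which repairs overoxidised peroxiredoxins, had the smallest p of the list, with 25.3, 25.3 and 24.8 FPKM in the RSL3 replicates and 9.96, 10.4 and 9.50 FPKM in the DMSO replicates (1.25; limma adjusted p = 0.00148). Hmox1 (0.73), which degrades haem, Slc48a1 (0.68), a haem transporter, and Fth1 (0.57), the ferritin heavy chain, rose as well. The other 9 did not pass, and the changes in the list ran from -0.0025 to 1.28.

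**Figure D5:**
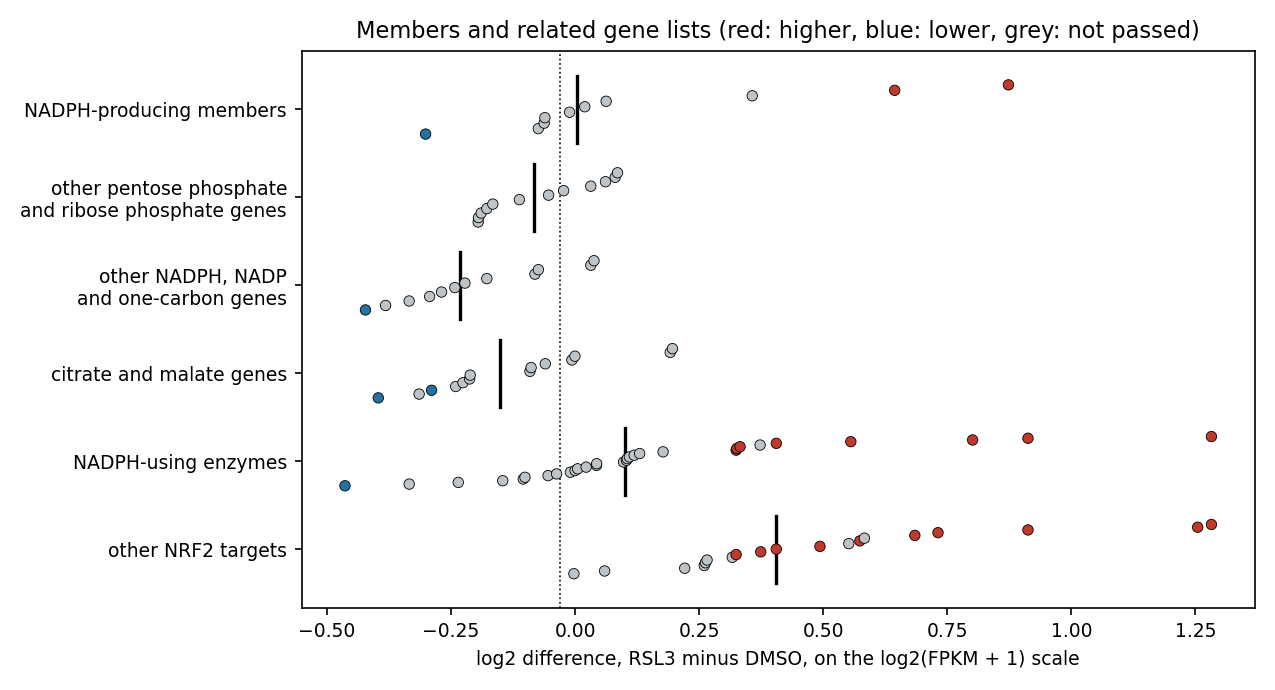
Log2 difference, RSL3 minus DMSO (horizontal axis), of every tested gene of the members and the 5 related lists; red genes rose, blue genes fell and grey genes did not pass, black bars are list medians, and the dotted line is the median of all tested genes. The NRF2 targets have the highest median (0.41) and the NADPH, NADP and one-carbon genes the lowest (-0.23). The lists were chosen with earlier results of these data known, so this order is descriptive.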

How the data were processed

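RNA from 6 libraries, 3 from cells given RSL3 and 3 from cells given DMSO, was analysed from the deposited tables. The authors deposited mRNA and lncRNA values in FPKM; per the submitters' processing notes, cutadapt, HISAT2 and StringTie 1.3.3 were used with the mouse build GRCm38. The authors deposited circRNA values as a signal under a CPM heading, and no source used here names the caller. FPKM keeps no read totals, so depth is unknown and no counting interval is given. No source used here states if counting used the strand.

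Genes that reached 1 FPKM in 3 or more of the 6 libraries were tested. The fit of log2(FPKM + 1) used limma 3.58.1 under R 4.3.3, RSL3 minus DMSO, with eBayes trend on and two-sided p-values, which were adjusted by Benjamini-Hochberg over all tested genes and read at 0.05. The log2(FPKM + 1) scale understates the change of genes with low values. The script was tested on simulated data. Ratios of 2 genes were compared by an exact permutation test (scipy 1.17.1). GENCODE M21 gave gene positions and the length and GC content of transcripts (11595 of 11609 mRNA identifiers found), using the longest coding transcript of a gene. Promoter sequences came from RefSeq on GRCm38.p6.

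The members and the lists were chosen with earlier results of these data known. The text names all 10 members, up to 6 genes past the threshold in each related list, 7 always-given genes, and the 2 genes nearest to each member that passed; any other gene was named after its values were seen. Alternatives were another pseudocount, other filters, 2 scalings, length and GC trends removed by splines, no variance trend, a replicate block and leaving out each library. The labels number the libraries but state no pairing.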

Additional observations from a re-analysis of the deposited data

How the results depend on the processing

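Of the 10 members, 3 passed in the main analysis, and 2 to 4 under each alternative: 2 after quantile normalization and with the replicate block, 4 with length and GC trends removed, and 2 to 4 without single libraries. Over all genes 676 passed, against 1777 with the trends removed and 253 with the replicate block. The counts were 196, 158 and 145 without DMSO replicates 1, 2 and 3. They were 1299, 737 and 189 without RSL3 replicates 1, 2 and 3. Of the 676, 261 were higher; after quantile normalization 350 were higher and 329 lower. The replicate numbers were not used as pairs: deviations of same-numbered libraries correlated at -0.15, 0.049 and -0.062 across genes, and the block ended the call of Mthfd1 but of no other member. Fits without 1 library hold fewer samples. The cause was not tested for any of these changes.

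Members that did not pass changed sign as follows. Idh1 stood at -0.043 without DMSO replicate 3, -0.080 without RSL3 replicate 2 and -0.040 without RSL3 replicate 3, and at up to 0.18 without other single libraries. Pgls stood at 0.018 with median-ratio scaling, 0.020 after quantile normalization, 0.078 without DMSO replicate 2 and 0.20 without RSL3 replicate 2, and as low as -0.16 without RSL3 replicate 1. Rpia stood at 0.0050 and Taldo1 at 0.020 without RSL3 replicate 1, and the lowest values without single libraries were -0.11 for Rpia, -0.15 for Taldo1 and -0.15 for Tkt. After quantile normalization Taldo1 stood at 0.011 and Tkt at 0.0052, and Tkt stood at 0.041 without RSL3 replicate 2. The Idh1 to Idh2 difference was 0.078 with trends removed, and it ranged between -0.13 and 0.099 without single libraries (0.0057 without DMSO replicate 1).

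The other pentose phosphate genes called were 1 with trends removed, and 0 without any single library. The NADPH, NADP and one-carbon genes called were 2 under the filter of 5 FPKM, 5 with trends removed and 0 to 2 without single libraries. Citrate and malate genes called were 1 with median-ratio scaling, quantile normalization or no variance trend, 4 with trends removed, 0 with the block and 0 to 4 without single libraries. NADPH users called were 5 with the block and 4 to 10 without single libraries, and NRF2 targets 6 with the block and 6 to 15 without single libraries. With an unknown read depth, what a low FPKM such as that of Rpia can resolve is not known.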
